A study of Mus musculus with 15 samples.

Results

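piRNA precursors are long RNAs that germ cells of the testis cut into piRNAs. The feature names do not say at which germ cell stage each precursor is made. The precursors described here are the annotated ones outside the divergent locus on chromosome 18 that the mutation removes. They were taken as every counted RNA-seq feature whose name marked it as a precursor and not as that locus, which gave 463 of 50051 features. The other features were 49585 genes and 3 precursors of the chromosome 18 locus. Of the 463 precursors, 249 carried the name of a gene they overlap, and 214 carried the name of a chromosome band.

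piRNAs are small RNAs of the germ line that bind PIWI proteins and guide them to complementary RNA. In mouse, pachytene piRNAs appear when spermatocytes enter the pachytene stage of meiosis, and their precursors are transcribed by RNA polymerase II under the transcription factor A-MYB, the product of Mybl1. Many of these loci are divergent: both strands are transcribed outward from 1 shared start region. Precursors are cut at the mitochondrial surface by Pld6, trimmed by Pnldc1 and methylated at the 3′ end by Henmt1, which makes the finished piRNA resistant to periodate.

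RNA came from whole testes of mice labelled B6D2F1, at postnatal day 28. Total RNA was sequenced from 3 wild-type (Chr18+/+), 3 heterozygous (Chr18+/-) and 3 homozygous mutant (Chr18-/-) samples after ribosomal RNA was removed, and strand was kept. Small RNA was sequenced from 3 heterozygous and 3 homozygous samples after periodate treatment, with no wild type. The labels give no animal identities, so the p-values measure the spread between these samples. A whole testis holds many cell types, and fewer cells of a type cannot be told apart from less RNA per cell.

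RNA-seq counts per library ran from 21684791 to 41513634, and small RNA reads assigned to genes from 939641 to 1861402. The RNA-seq labels were checked on the deleted locus: precursor 18_qE1_36451_1 stood at 255 to 296 CPM (counts scaled to library size) in the wild-type libraries, 133 to 205 in the heterozygous ones and 0.115 to 0.210 in the homozygous ones. Small RNA was counted over genes alone, and no gene lay on the strand of that locus, so this check was not made there. The RNA-seq library heterozygous 1 stood apart: it was the highest of 9 libraries for 36 of the 80 precursors tested below, and its summed CPM over 9 elongating spermatid markers was 4070, against 10685 and 9198 in heterozygous 2 and 3. The small RNA library heterozygous 1 also stood apart, and counts of calls are given with and without each.

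Sequences at precursor starts are shown first, because the shared start is what defines a divergent pair. RefSeq promoter windows of 300 bases on GRCm38.p6, the mm10 build, covered the starts of 220 precursors at 110 loci, with 124 windows in all. The following 4 windows run from 250 bases before to 50 bases after the start of the named gene, on that gene's strand. The first 3 hold the starts of both arms of a divergent locus, and the last holds the start of the gene-named precursor with the lowest adjusted p against wild type. Capitals mark AACNG on either strand, the short core that MYB proteins bind, with adjoining matches run together.
Gm10505, chr17:27324946-27325245, plus strand, arms 17_qA3_3_27363 and 17_qA3_3_26735: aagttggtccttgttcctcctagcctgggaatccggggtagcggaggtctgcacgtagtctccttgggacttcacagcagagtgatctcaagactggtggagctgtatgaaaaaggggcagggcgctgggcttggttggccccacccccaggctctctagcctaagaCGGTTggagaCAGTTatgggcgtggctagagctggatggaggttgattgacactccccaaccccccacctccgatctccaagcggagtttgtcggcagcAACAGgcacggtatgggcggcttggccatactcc
Gm10619, chr7:73816454-73816753, minus strand, arms 7_qD2_24830 and 7_qD2_11976: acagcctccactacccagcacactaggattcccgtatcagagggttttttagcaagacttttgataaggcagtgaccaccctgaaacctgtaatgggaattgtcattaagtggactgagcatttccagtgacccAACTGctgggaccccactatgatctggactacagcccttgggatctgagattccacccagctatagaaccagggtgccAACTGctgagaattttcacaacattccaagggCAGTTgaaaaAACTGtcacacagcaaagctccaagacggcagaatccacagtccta
4933440M02Rik, chr7:125349737-125350036, minus strand, arms 7_qF3_3125 and 7_qF3_246: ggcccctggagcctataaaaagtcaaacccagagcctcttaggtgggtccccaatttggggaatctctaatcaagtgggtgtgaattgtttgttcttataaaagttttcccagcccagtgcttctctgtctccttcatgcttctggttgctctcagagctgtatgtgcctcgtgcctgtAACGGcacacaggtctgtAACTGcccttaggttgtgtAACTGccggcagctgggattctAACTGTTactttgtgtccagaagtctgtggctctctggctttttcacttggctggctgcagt
Klhl11, chr11:100472733-100473032, minus strand, precursor pi_Klhl11_1: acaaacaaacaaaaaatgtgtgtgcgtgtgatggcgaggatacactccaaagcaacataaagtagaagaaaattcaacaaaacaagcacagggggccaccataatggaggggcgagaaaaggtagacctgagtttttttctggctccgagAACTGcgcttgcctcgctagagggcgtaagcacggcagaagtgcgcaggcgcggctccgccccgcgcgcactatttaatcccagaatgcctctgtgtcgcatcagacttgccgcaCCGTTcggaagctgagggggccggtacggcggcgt

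The windows at band-named precursors held longer forms of this core more often than promoters at large. AACTGNC, which contains AACNG, stood on either strand in 22 of 38 windows of band-named precursors (57.9%), in 11 of 86 windows of gene-named precursors (12.8%) and in 12.8% of all 32851 windows. TAACNG, which also contains AACNG, stood in 19 of 38, 20 of 86 and 23.3% of all windows. The bare core AACNG is too common to separate them, at 97.4%, 70.9% and 80.3%. Base composition differed between the sets: the median share of G and C was 52.3% in band-named windows, 65.0% in gene-named windows and 52.7% in all. Among windows under 50% G and C, AACTGNC stood in 11 of 13 band-named windows against 14.5% of all windows. At 50 to 60% it stood in 7 of 15 against 15.1%, and from 60% up in 4 of 10 against 8.03%. For TAACNG the difference was small under 50% G and C, at 5 of 13 against 30.6%. It stood in 8 of 15 against 23.9% at 50 to 60%, and in 6 of 10 against 12.9% from 60% up. These are letter matches in 1 fixed window per gene, and windows of the same divergent locus share sequence.

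The 463 precursors lay on 19 chromosomes, with the largest numbers on chromosome 9 (42), chromosome 10 (40) and chromosome 6 (39), and none was on X or Y. The plus strand held 236 and the minus strand 227. Their length ran from 0.123 to 599 kb, with a median of 24.6 kb, and gene-named precursors had a longer median (31.3 kb) than band-named ones (18.0 kb). The precursors overlapped one another as isoforms and formed 212 loci when joined by strand. Only 1 lay on chromosome 18, pi_Ndst1_1, which is outside the deleted locus.

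Most precursors could not be measured in RNA-seq, because a read shared by features that overlap on 1 strand was counted for none of them. Of the 463, 351 had no base of their own, and all 351 were listed at 0. A further 15 were at 0 with at most 354 bases of their own. The remaining 97 received counts, 1 for each of 97 loci. Of these, 80 had enough reads to be tested, 63 band-named and 17 gene-named, and 17 were too low. A level therefore describes only the stretch that a precursor shares with no other feature, a median of 29.4% of its length among the 80. Levels between precursors were compared only per kb of that unshared stretch.

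A few loci held most precursor counts. Band-named precursors took 95.2% of all counts on the 463, and 7 features took 52.9%: both arms of 9_qC and of 6_qF3, and 1 arm each of 14_qA3, 7_qD1 and 17_qA3_3. These sums are raw counts and depend on how much of a precursor could be counted, so they do not rank levels. Of 249 gene-named precursors 204 had no base of their own, against 147 of 214 band-named ones. Reads lay mostly on the annotated strand. Counts on the opposite strand came to 2.05% of the kit strand over the precursors, against 9.81% over all features. Among 79 precursors with at least 100 counts, 4 had more on the opposite strand: pi_Hjurp_2, 17_qC_59_2, 10_qA3_143_2 and 6_qC3_6258_3.

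Per unshared kb, 1_qD_2017_2 stood highest in wild type, at 54.3 ± 4.07 CPM per kb (SD, n = 3). This minus-strand precursor of 2975 bases starts in the promoter window of the noncoding gene 1700020N18Rik. The next was pi_Asb1_3 at 26.7 ± 0.936 CPM per kb, over only 0.529 kb of unshared sequence, followed by 8_qC5_8200_1 at 23.4 ± 1.57 and 1_qE3_706_1 at 23.2 ± 5.02. The means of pi_Asb1_3 and 8_qC5_8200_1 lie within the SD of 1_qE3_706_1, so the rank of 1_qE3_706_1 is uncertain. Ranks within this list were not tested. The precursors 12_qE_23911_2 (19.3 ± 0.609), pi_Cdc42ep3_3 (18.8 ± 0.318), 15_qD1_17920_3 (18.7 ± 0.997), 6_qF3_8009_1 (17.3 ± 1.63), pi_Klhl11_1 (16.8 ± 0.625) and 3_qA3_2052_2 (13.8 ± 3.03 CPM per kb) completed the 10 highest. The median over the 80 was 3.08 CPM per kb, and the lowest was 0.175.

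Precursors made up a somewhat larger share of RNA-seq counts in both mutant groups than in wild type. The share was 0.369, 0.406 and 0.391% in the wild-type libraries, 0.593, 0.440 and 0.482% in the heterozygous ones and 0.485, 0.448 and 0.465% in the homozygous ones. All 6 mutant libraries lay above all 3 wild-type libraries, and the 2 mutant groups overlapped. The group means were 0.389 ± 0.0185, 0.505 ± 0.0788 and 0.466 ± 0.0186% (SD, n = 3 each). Without heterozygous 1 the heterozygous mean was 0.461%. The plot of shares shows the RNA-seq libraries beside those of small RNA.

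**Figure D1:**
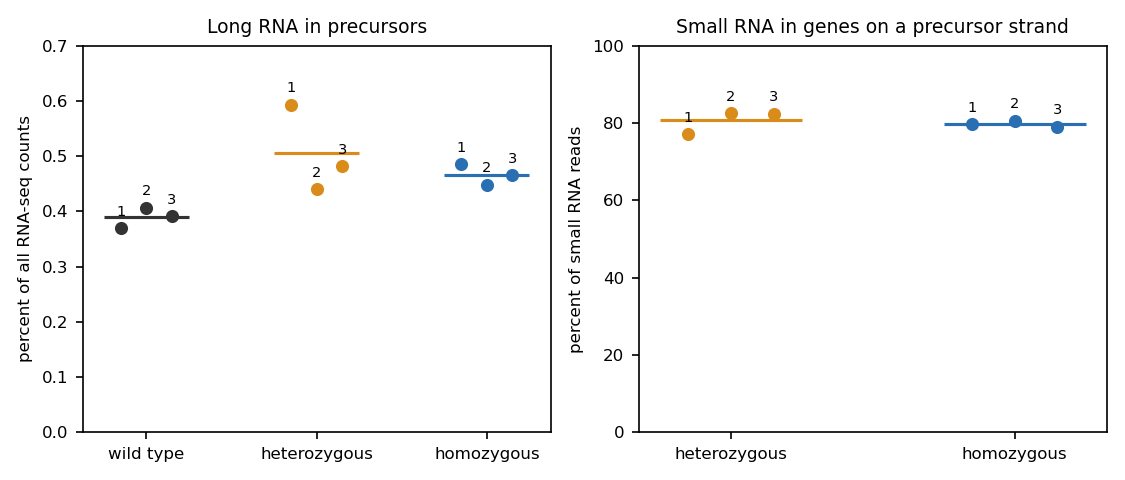
Left, the percent of each RNA-seq library's counts that fell on the 463 precursors, by genotype. Right, the percent of each small RNA library's reads that fell in genes on the strand of a precursor. Points are libraries, numbered, and lines are group means; the wild-type points run from 0.369 to 0.406%, below all others.

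The first comparison sets homozygotes against heterozygotes, which asks whether losing the second copy of the chromosome 18 locus goes with a change in other precursors. No precursor passed the test: 0 of 80 had an adjusted p under 0.05 in edgeR's quasi-likelihood test, where 0.0289% of all 20782 features tested were called. None of the 80 had an unadjusted p under 0.05, against 3.07% of all features, and DESeq2 also called 0, against 0.0818% of all features. The median log2 fold change was -0.06, against 0.01 over all features.

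The data bound the size of a change in most precursors. The 95% interval reached a median of 0.31 to either side on the log2 scale, and for 76 of 80 precursors the whole interval lay between -1 and 1. The widest belonged to the gene-named pi_Cramp1l_1, with a log2 fold change of -0.70 and an interval from -1.73 to 0.34. The lowest unadjusted p, 0.0559, belonged to 14_qA3_284_2. This precursor read 73.2, 58.4 and 78.8 CPM in heterozygotes and 56.8, 60.7 and 60.9 CPM in homozygotes, so the groups overlapped. In 2 precursors, pi_Acvr2b_1 and 10_qC1_2617_2, every homozygous library lay below every heterozygous one, as was so for 4.45% of all features. Without heterozygous 1 the median turned to 0.05 and the count of calls stayed at 0.

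Against wild type, precursors that changed were mostly higher in homozygotes. There 12 precursors were higher and 1 was lower of 80 tested, while 9.68% of all features were called higher and 11.1% lower (20.8% in all). The median log2 fold change of the 80 was 0.18, against -0.01 over all features. Homozygous libraries lay wholly above wild type in 32 precursors and wholly below in 6, against 20.6% and 22% of all features. DESeq2 called 14 higher and 1 lower, where it called 23% of all features.

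Heterozygotes gave values of the same kind against the same wild-type libraries, so these 2 comparisons are not independent. In heterozygotes 19 precursors were higher and 1 was lower, with 11.1% of all features higher and 12.9% lower (23.9% in all). The median was 0.20, against 0.00 over all features. Heterozygous libraries lay wholly above wild type in 26 precursors and wholly below in 5, against 20.5% and 21.6% of all features. DESeq2 called 20 higher and 2 lower, where it called 25.7% of all features. Without heterozygous 1 this comparison called 7 higher and 2 lower, 8 of them among the original 20, with 19.5% of all features called, and the median was 0.09. Without heterozygous 3 it called 6 in all. In homozygotes the count fell to 5 without homozygous 2 or homozygous 3, and to 6 without wild type 1. It was 8 without wild type 3 or homozygous 1, and rose to 17 without heterozygous 1. Among those 17, pi_Asb1_3 (-0.59 ± 0.14) and pi_Cramp1l_1 (-1.25 ± 0.40) were newly called lower. The shares of all features called in these homozygous fits are not given here. The plot of fold changes shows all 80 in each comparison.

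**Figure D2:**
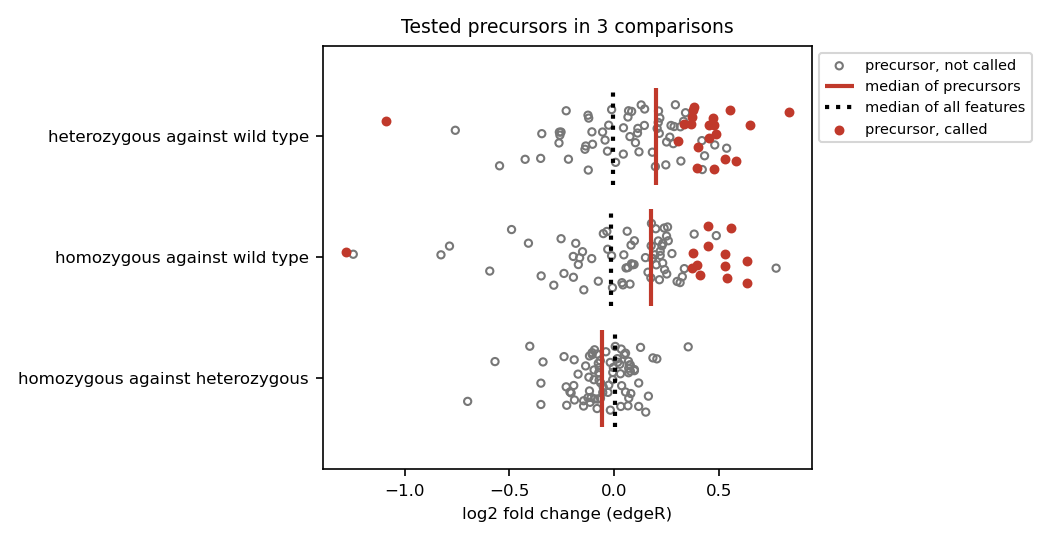
Log2 fold change of each of the 80 tested precursors (points, jittered vertically) in the 3 comparisons. Filled points passed an adjusted p of 0.05; solid lines are the medians of the precursors (-0.06, 0.18 and 0.20 from bottom to top) and dotted lines those of all features.

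Among precursors that rose in homozygotes, the lowest adjusted p belonged to pi_Klhl11_1, a minus-strand precursor of 15659 bases over the Kelch-family gene Klhl11 (chr11:100457124-100472782), whose promoter window is printed above. It read 88.6, 93.1 and 95.4 CPM in the wild-type libraries, 122, 112 and 127 in the heterozygous ones and 119, 131 and 127 in the homozygous ones. The wild-type libraries lay below all 6 others, and the 2 mutant groups overlapped. The log2 fold change was 0.45 ± 0.09 (SE; adjusted p 0.00554, edgeR) in homozygotes and 0.38 ± 0.08 (adjusted p 0.00986) in heterozygotes. Both calls held under all 18 alternative settings.

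The precursor that fell was 15_qE1_1119_3, of 35229 bases on the plus strand (chr15:79928005-79963233). It read 9.00, 6.98 and 6.50 CPM in the wild-type libraries, 4.42, 3.28 and 2.82 in the heterozygous ones and 3.72, 3.08 and 2.46 in the homozygous ones. Wild type lay above all 6 other libraries. The log2 fold change was -1.28 ± 0.21 (SE; adjusted p 0.00287, edgeR) in homozygotes and -1.09 ± 0.21 (adjusted p 0.00526) in heterozygotes, the only precursor called past 2-fold in either comparison. It held under all 18 alternatives.

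Among precursors with no overlapping feature, 13_qA5_703_1 (28510 bases, minus strand, chr13:50905639-50934148) rose in both mutant groups. It read 54.3, 67.2 and 62.0 CPM in the wild-type libraries, 87.7, 77.5 and 85.7 in the heterozygous ones and 76.3, 80.2 and 81.8 in the homozygous ones. The log2 fold change was 0.38 ± 0.10 (adjusted p 0.0183, edgeR) in homozygotes and 0.45 ± 0.10 (adjusted p 0.00824) in heterozygotes. The abundant 7_qD1_9417_1, the minus arm of a divergent locus at chr7:69874209-69909583, read 293, 280 and 255 CPM in the wild-type libraries, 461, 307 and 386 in the heterozygous ones and 378, 354 and 370 in the homozygous ones. Its groups also did not overlap with wild type, with log2 fold changes of 0.41 ± 0.13 (adjusted p 0.0409) in homozygotes and 0.48 ± 0.13 (adjusted p 0.021) in heterozygotes. Of the 18 alternatives, the homozygous call was missed in 3 for 13_qA5_703_1 and in 7 for 7_qD1_9417_1. The heterozygous call of 13_qA5_703_1 held in all 18. That of 7_qD1_9417_1 was missed in 4, and without heterozygous 1 it was at 0.33 ± 0.11 (adjusted p 0.056, edgeR).

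The other called precursors moved by less than 2-fold. Higher in both groups were 1_qC1_3_637_1, 13_qA5_156_1, 8_qC5_2209_1, 3_qA3_2052_2, 10_qC1_875_3, 12_qE_23911_2, 8_qA4_332_2 and pi_1700006A11Rik_2, with log2 fold changes in homozygotes from 0.37 (12_qE_23911_2) to 0.64 (3_qA3_2052_2). Of the 18 alternatives, the calls in homozygotes and heterozygotes were missed in 0 and 1 for 1_qC1_3_637_1 and for 13_qA5_156_1, and in 2 and 0 for 8_qC5_2209_1. They were missed in 3 and 5 for 3_qA3_2052_2, 6 and 5 for 10_qC1_875_3, 6 and 10 for 12_qE_23911_2, 6 and 6 for 8_qA4_332_2, and 8 and 3 for pi_1700006A11Rik_2. Without heterozygous 1 these last 5 were not called in heterozygotes. The precursor 8_qA4_155_1 was called only in homozygotes (0.64 ± 0.19, adjusted p 0.0333, edgeR), where heterozygotes gave 0.43 ± 0.19 and an adjusted p of 0.112, and its call was missed in 5 of the 18. The difference between those groups was not called. In all, 12 precursors were called in both comparisons, 8 in heterozygotes alone and 1 in homozygotes alone. Wild type lay below all 6 other libraries in 22 of the 80 and above them in 4, against 15% and 16.9% of all features. The plot of called precursors shows each library.

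**Figure D3:**
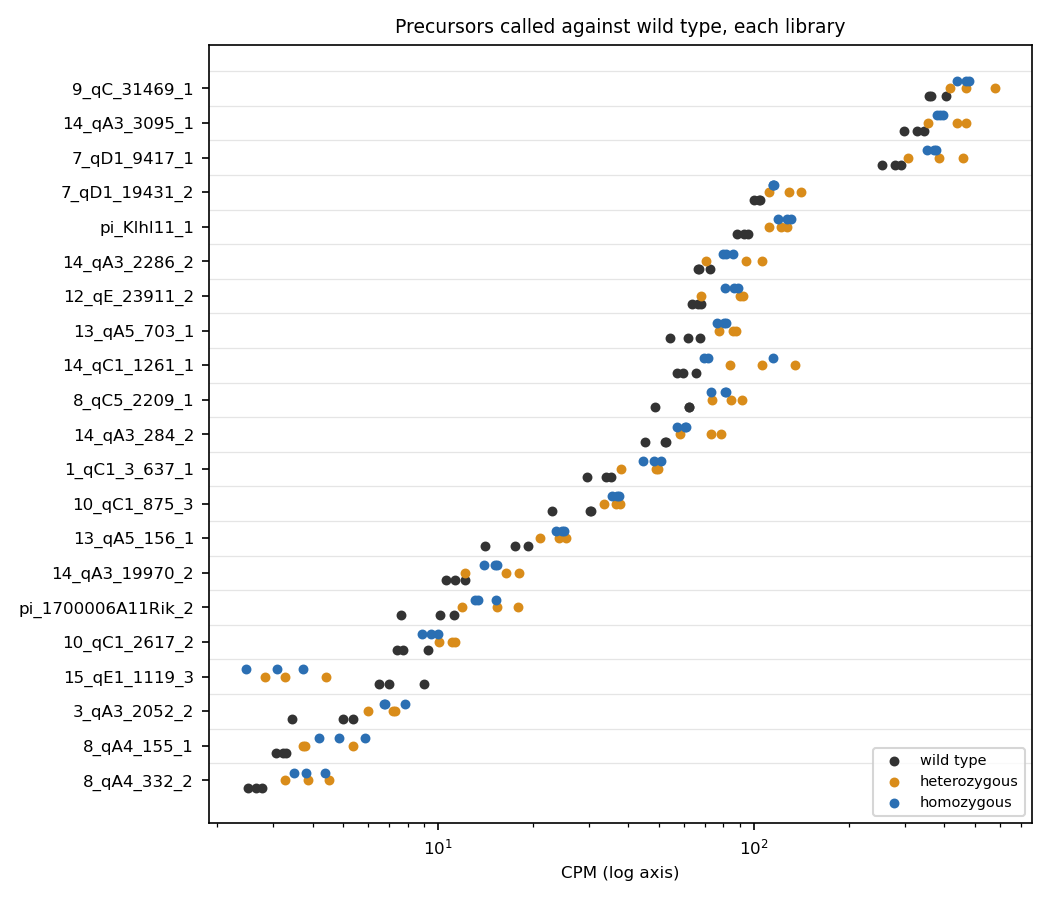
CPM (log axis) of the 21 precursors called in either comparison against wild type, ordered by wild-type mean. Each point is a library; wild-type points lie left of the mutant points in most rows, and 15_qE1_1119_3 is the row in which they lie right.

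Chromosome 14 held 5 tested precursors, and all 5 were called higher in heterozygotes; the chromosome was picked out after its values were seen. Of all 768 features tested on chromosome 14, 14.6% were called higher in heterozygotes. Without heterozygous 1, 14_qC1_1261_1 and 14_qA3_284_2 were called and the other 3 were not. The highest fold was in 14_qC1_1261_1, a minus-strand precursor of 31828 bases with no overlapping feature. It read 57.2, 65.3 and 59.4 CPM in the wild-type libraries, 135, 106 and 83.7 in the heterozygous ones and 71.3, 114 and 69.5 in the homozygous ones. Its log2 fold change was 0.84 ± 0.20 (adjusted p 0.0122, edgeR) in heterozygotes and 0.49 ± 0.20 (adjusted p 0.0957) in homozygotes, and without heterozygous 1 the heterozygous value was 0.65 ± 0.19 (adjusted p 0.0333). None of the 5 was called in homozygotes, where the chromosome's median was 0.26 against 0.45 in heterozygotes. Between homozygotes and heterozygotes the 5 had a median of -0.14 and no call.

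Longer precursors had higher medians against wild type. The 49 of at least 20 kb had medians of 0.20 in homozygotes and 0.29 in heterozygotes, against 0.06 and 0.07 for the 31 shorter ones. The 43 minus-strand precursors had medians of 0.20 and 0.22, and the 37 plus-strand ones 0.10 and 0.15. Differences between these subgroups were not tested. With a trend over feature length removed across all features, 11 precursors were called in homozygotes and 16 in heterozygotes, where 20.1% and 20.7% of all features were called.

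Markers of some germ cell stages moved in the same comparisons, and their part in the precursor values was not tested. Of 7 early meiotic prophase markers, such as Sycp3 and Dmc1, 7 were called higher in homozygotes and 5 in heterozygotes, against 9.68% and 11.1% of all features; their summed CPM was 802 to 847 in the wild-type libraries, 1034 to 1296 in the heterozygous ones and 1154 to 1304 in the homozygous ones. Of 9 elongating spermatid markers, 5 were lower in homozygotes and 6 in heterozygotes, against 11.1% and 12.9% of all features. The protamine gene Prm2 was called in both groups, while Prm1, Tnp1 and Tnp2 were called in neither. The sum was 12762 to 13278 in the wild-type libraries, 4070 to 10685 in the heterozygous ones and 6941 to 9399 in the homozygous ones. Of 8 markers of pachytene and secondary spermatocytes, 0 were called in homozygotes and 1 was lower in heterozygotes. Their sum ran from 4956 to 5149 CPM in the wild-type libraries, 4508 to 4665 in the heterozygous ones and 4655 to 4863 in the homozygous ones. Of 6 Leydig cell markers, 5 were lower in each mutant group, against 11.1% of all features in homozygotes and 12.9% in heterozygotes. Without heterozygous 1 the heterozygous counts of these 4 lists were the same, except that 2 of the 8 spermatocyte markers were lower. Of 8 round spermatid markers, 1 was higher and 0 were lower in each mutant group. Their sum was 1091 to 1179 CPM in wild type, 1040 to 1158 in heterozygotes and 1099 to 1193 in homozygotes. Of 6 spermatogonial markers, 1 was higher and 1 lower in each, with sums of 94.7 to 116, 87.1 to 96.0 and 82.8 to 90.6 CPM. Without heterozygous 1, neither of these lists had a marker called higher in heterozygotes. No marker of any list here was called between homozygotes and heterozygotes.

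Divergent loci allow a comparison of arms that share a start. Starts of opposite strands lay within 1000 bases in 14 pairs of loci. Both arms were tested in 7 of them, with starts 38 to 158 bases apart (median 99). Per unshared kb, the minus arm stood higher in wild type in 5 of 7, with a ratio from 0.906 to 17.3. The unshared stretches lie at different distances from the start in the 2 arms, and how that sets the ratio was not tested.

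The most balanced of the abundant pairs was 9_qC, where 9_qC_31469_1 on the minus strand and 9_qC_10667_1 on the plus strand start 158 bases apart and are counted over 99.7% and 94.5% of their length. The minus arm stood at 8.86 ± 0.616 and the plus arm at 9.78 ± 0.426 CPM per kb in wild type. The minus arm read 406, 363 and 358 CPM in the wild-type libraries, 578, 418 and 470 in the heterozygous ones and 480, 438 and 471 in the homozygous ones. The plus arm read 259, 251 and 238, then 358, 254 and 322, then 284, 274 and 299 CPM. Both arms were thus highest in the library heterozygous 1. Only the minus arm in heterozygotes was called (0.38 ± 0.12, adjusted p 0.0359, edgeR; 0.24 ± 0.10, adjusted p 0.103, without heterozygous 1), and the plus arm gave 0.32 ± 0.12 (adjusted p 0.0638).

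The 6_qF3 pair was uneven: the minus arm 6_qF3_8009_1 stood at 17.3 ± 1.63 CPM per kb and the plus arm 6_qF3_28913_1 at 6.76 ± 0.706, a ratio of 2.55 that was 2.24 in heterozygotes and 2.44 in homozygotes. Neither arm was called. The 12_qE pair had a ratio of 5.65, with the minus arm 12_qE_23911_2 called higher in both groups and the plus arm 12_qE_7089_2 at log2 fold changes of 0.18 ± 0.17 and 0.11 ± 0.17. The ratio of 17.3 belonged to 15_qD1, whose minus arm is counted over only 0.591 kb. In 10_qB5_1 the arms had log2 fold changes of opposite sign in homozygotes, 0.10 ± 0.10 for the minus and -0.14 ± 0.10 for the plus arm, and neither was called. The pair 5_qF was at -0.18 ± 0.20 and -0.29 ± 0.13. In the 7_qD1 pair, 7_qD1_654_1 had only 0.152 kb of its own and 0.546 to 0.987 CPM in wild type, while its plus arm 7_qD1_19431_2 was called higher in heterozygotes (0.31 ± 0.09, adjusted p 0.0322, edgeR; 0.23 ± 0.09, adjusted p 0.101, without heterozygous 1). In the 17_qA3_3 pair only the minus arm could be measured, and 17_qA3_3_27363_1 read 292, 240 and 221 CPM in wild type and 270, 230 and 239 in homozygotes, with a log2 fold change of -0.03 ± 0.14.

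**Figure D4:**
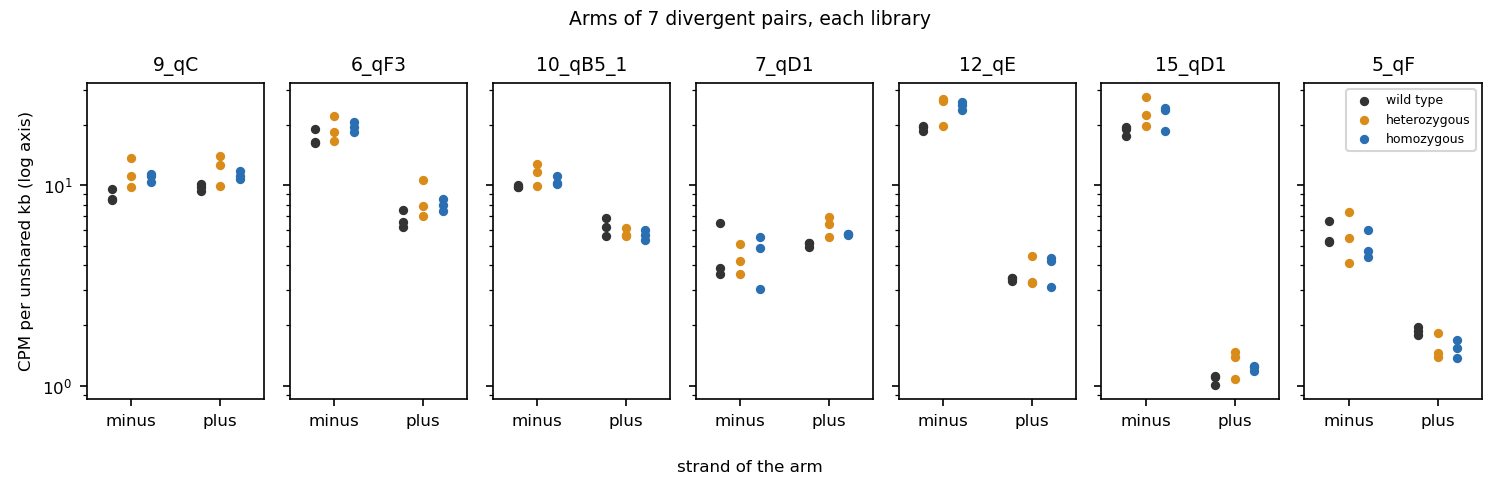
CPM per unshared kb (log axis) of the minus and plus arms of the 7 divergent pairs with both arms tested. Each point is a library; the arms of 9_qC lie close together and those of 15_qD1 lie 17.3-fold apart in wild type.

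In homozygotes against wild type, genes of the piRNA pathway were called higher more often than lower, while most were not called. Of 28 tested genes of a list of 29, 7 were higher and 1 was lower in homozygotes against wild type, 4 were higher and 1 was lower in heterozygotes (3 and 2 without heterozygous 1), and 0 were called between homozygotes and heterozygotes. Of all features, 9.68% were called higher and 11.1% lower in homozygotes (20.8% in all). In heterozygotes 11.1% were called higher and 12.9% lower (23.9% in all), and 19.5% in either direction without heterozygous 1. The list's medians against wild type were 0.02 and -0.01. Mybl1, which encodes A-MYB, had 131 ± 7.30 CPM in the wild-type libraries, 160 ± 19.3 in the heterozygous ones and 165 ± 10.8 in the homozygous ones (SD, n = 3 each), a log2 fold change of 0.33 ± 0.10 in homozygotes (adjusted p 0.0399, edgeR) and 0.28 ± 0.10 in heterozygotes (adjusted p 0.0607). Btbd18, a nuclear factor needed for elongation at many pachytene piRNA loci, was higher in homozygotes (0.37 ± 0.11, adjusted p 0.0395, edgeR). Tcfl5, a transcription factor of spermatocytes, was at 0.02 ± 0.08.

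Among the processing and binding factors, the PIWI genes Piwil1 and Piwil2 had log2 fold changes of -0.14 ± 0.10 and -0.06 ± 0.10 in homozygotes against wild type, with no call. Mov10l1, the helicase that feeds precursors into processing, was at 0.24 ± 0.09 (adjusted p 0.071, edgeR). Pld6 was at -0.20 ± 0.09, Pnldc1 at 0.02 ± 0.13 and Henmt1 at -0.13 ± 0.12, none called. The other genes called higher in homozygotes were the Tudor genes Tdrd1, Tdrd9, Tdrd12 and Rnf17 and the mitochondrial scaffold gene Asz1, and of these Tdrd9, Tdrd12, Rnf17 and Asz1 were also called in heterozygotes. Kif17, a kinesin, was lower in both groups, at -0.58 ± 0.14 and -0.65 ± 0.14.

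Small RNA gave a second readout of the same loci, because 248 genes lay on the strand of a precursor and overlapped it. These genes overlapped 385 of the 463 precursors, and 207 of them had reads. Any overlap sufficed, so reads over exons of these genes that lie outside the precursor are counted too. The RNA was oxidised, so reads are enriched in methylated small RNAs such as piRNAs, and they are counted over exons of annotated genes, so piRNAs from the rest of a precursor are not in these counts. The genes held 77.1, 82.5 and 82.3% of all gene-assigned small RNA reads in heterozygotes and 79.6, 80.5 and 79.1% in homozygotes. The groups overlapped, and the lowest share was that of heterozygous 1.

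Small RNA reached loci that RNA-seq could not count. Reads fell in 171 of the 212 loci, and 109 of these had no RNA-seq count on any precursor. Those loci held 65.8% of the precursor-strand small RNA reads. Together, 206 of 212 loci had a count in 1 or both assays. Genes on band-named precursors held 71.6% of the reads and genes on gene-named ones 28.4%, where band-named precursors held 95.2% of the RNA-seq counts; the 2 assays count different stretches of these loci.

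The richest gene was Gm21269, on the plus arm of 7_qD2, whose start region is printed above. It took 11.9, 13.8 and 14.9% of reads in heterozygotes, and 11.6, 12.6 and 13.0% in homozygotes, 998315 reads in all, so the groups overlapped (log2 fold change -0.05 ± 0.11). Gm10619, on the minus arm of the same locus, took 4.80, 4.76 and 4.20%, then 4.96, 4.93 and 5.08%, so all homozygous libraries lay above the heterozygous ones, with a log2 fold change of 0.18 ± 0.13 that was not called. Without heterozygous 1, Gm10619 was called higher in homozygotes (0.29 ± 0.08, adjusted p 0.00976, edgeR), and Gm21269 was at -0.07 ± 0.08 and not called. The next were Gm5878 (362420 reads in all), 4933440M02Rik of 7_qF3 (353007), Gm14244 of 2_qF1 (238150) and 1700042G15Rik of 4_qB3 (210448). Without heterozygous 1, 4933440M02Rik was called at 0.25 ± 0.08 (adjusted p 0.0248, edgeR), while Gm5878 at -0.03 ± 0.08 and Gm14244 at 0.23 ± 0.09 were not. Gm30132, on 8_qC5_2209_1, took 2.74, 2.84 and 2.70% in heterozygotes and 2.67, 2.60 and 2.62% in homozygotes, a log2 fold change of -0.01 ± 0.11, beside -0.08 ± 0.11 for that precursor in RNA-seq; without heterozygous 1 it was at 0.06 ± 0.08 and not called. The plot of small RNA shows the 20 richest genes.

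**Figure D5:**
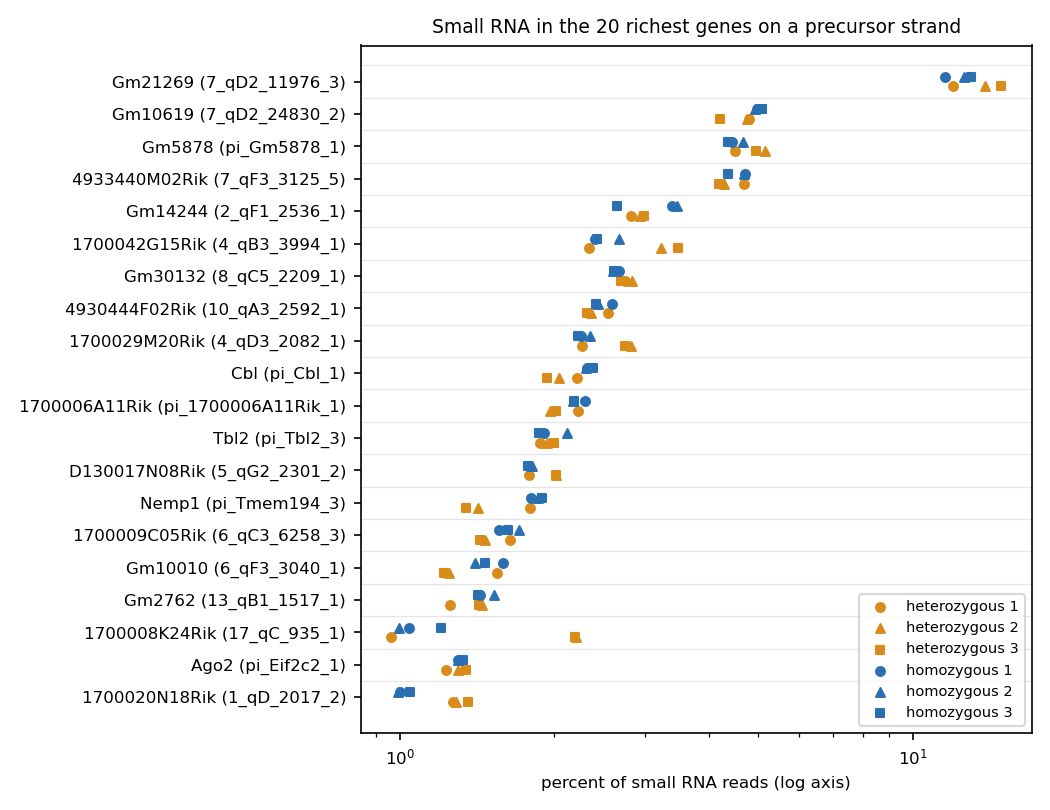
Percent of small RNA reads (log axis) in each library for the 20 richest genes on a precursor strand, with the precursor in brackets. Symbols are libraries; in the row of 1700008K24Rik heterozygous 2 and 3 lie near 2.20% and the other 4 libraries between 0.963 and 1.20%.

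With all 6 libraries, no small RNA gene on a precursor strand passed the test between homozygotes and heterozygotes. In edgeR's quasi-likelihood test 0 of 184 were called, where 0.0279% of all 3581 genes tested were called, and 25 had an unadjusted p under 0.05, against 8.71% of all genes. DESeq2 called 0. With no filter on low counts, 4 of 207 were called, with 0.232% of all genes called. In simulated small RNA data the test recovered 1.49% of 1.5-fold, 14.9% of 2-fold and 75.8% of 4-fold changes. Most changes of 2-fold or less would thus be missed, and the count of 0 does not show that these genes were unchanged. In the measured data the median log2 fold change of the 184 genes was -0.01, as over all genes, and the values ran from -1.09 to 0.64. The lowest p belonged to Slc43a2, an amino acid transporter gene, on pi_Slc43a2_1. It took 0.0748, 0.0912 and 0.108% of reads in heterozygotes and 0.0458, 0.0439 and 0.0410% in homozygotes, groups that did not overlap, with a log2 fold change of -0.99 ± 0.15 (adjusted p 0.188, edgeR). Slc43a2 was called with no filter on low counts (adjusted p 0.00683), without heterozygous 1 (-1.05 ± 0.13, adjusted p 1.21e-07) and without heterozygous 2 and 3 (-0.85 ± 0.19, adjusted p 0.0122).

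The count of 0 rests on the small RNA library heterozygous 1, which lay nearer to the homozygous mean than to the mean of heterozygous 2 and 3 in 133 of the 184 genes. Heterozygous 2 and 3 both lay outside the range of the other 4 libraries, on the same side, in 103 genes. Both counts were made over these 184 genes alone, so they do not show a trait particular to them. The median distance from the homozygous mean was 0.17 on the log2 scale for heterozygous 1, 0.32 for heterozygous 2 and 0.29 for heterozygous 3, and heterozygous 2 and 3 were 0.10 apart. An example chosen for this is 1700008K24Rik on 17_qC_935_1, at 0.963% in heterozygous 1, 2.20% in heterozygous 2 and 3, and 1.04, 0.999 and 1.20% in homozygotes, with a log2 fold change of -0.88 ± 0.10 (adjusted p 4.64e-09, edgeR) without heterozygous 1. Without heterozygous 1, 65 of 184 genes were called, 34 higher and 31 lower in homozygotes, with 16.1% of all genes called. Without heterozygous 2 and 3, which leaves 1 heterozygous library that is assumed to vary like the homozygous ones, 2 of 189 were called, with 1.45% of all genes called. What sets heterozygous 1 apart was not tested.

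The 65 genes called without heterozygous 1 had a median change of 0.56 in size on the log2 scale. Of these, 3 changed at least 2-fold, all lower in homozygotes: Rplp1 (-1.38 ± 0.24), Hist1h1a (-1.36 ± 0.17) and Slc43a2 (-1.05 ± 0.13). Rc3h1, which encodes the RNA-binding protein Roquin-1, took 0.0988, 0.0824 and 0.0818% of reads in heterozygotes and 0.129, 0.122 and 0.130% in homozygotes. Its log2 fold change was 0.76 ± 0.13 without heterozygous 1 and 0.59 ± 0.18 (adjusted p 0.557, edgeR) with it. For 1700042G15Rik the values were 2.34, 3.23 and 3.48%, then 2.40, 2.67 and 2.43%, and the log2 fold change was -0.29 ± 0.09 without heterozygous 1 and -0.19 ± 0.13 with it.

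Of the 248 genes, 30 were annotated as microRNA genes, 19 of them with reads and 16 tested. Those with most reads lie in band-named precursors and are shown because their reads outlasted periodate, which removes RNAs without a methylated end. Mature sequences are RefSeq's on GRCm38.p6, with the seed (bases 2 to 8) in capitals, and no seed is shared between those printed.
mmu-miR-7217-5p, 17_qA3_3_26735_1: aACUUGUAucuugugagacagaagg
mmu-miR-7230-3p, 5_qF_14508_1: uUGAGUUGagacugucaguaggu
mmu-miR-468-5p, 6_qC3_6258_1: gACUGAUGuacugauaagaaacucagu
mmu-miR-7241-5p, 9_qC_31469_1: aCUUGCAUgaguuaauacccacc

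Reads are per microRNA gene and not per mature arm, so reads of other sequence from the same hairpin enter too. Mir7217, on the plus arm of 17_qA3_3, took 0.784, 0.772 and 0.989% of reads in heterozygotes and 0.915, 1.15 and 1.10% in homozygotes, and the groups overlapped. Without heterozygous 1 it was called higher in homozygotes (0.40 ± 0.12, adjusted p 0.0138, edgeR). Mir468 took 0.327, 0.340 and 0.332%, then 0.451, 0.354 and 0.409%, groups that did not overlap, with a log2 fold change of 0.34 ± 0.13 (adjusted p 0.557, edgeR), and it was called without heterozygous 1 (0.40 ± 0.11, adjusted p 0.0091). Mir7241, within the minus arm of 9_qC, took 0.227% in heterozygous 1, 0.424 and 0.427% in heterozygous 2 and 3, and 0.208, 0.223 and 0.212% in homozygotes, so heterozygous 1 lay close to the homozygotes; without it the log2 fold change was -0.85 ± 0.11 (adjusted p 2.25e-07, edgeR). Mir7230 took 0.638, 0.825 and 0.857%, then 0.515, 0.623 and 0.609%, a log2 fold change of -0.33 ± 0.15 with all libraries and -0.39 ± 0.11 without heterozygous 1.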

How the data were processed

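The authors deposited raw counts, not normalized, which were used as they are. Per the file headers, featureCounts 1.6.2 counted RNA-seq read pairs over whole gene bodies by strand, and featureCounts 1.6.1 counted small RNA reads over exons of genes. RNA-seq reads in overlapping features of 1 strand, and multiply mapped reads, were left out, so isoforms that share all their sequence read 0. The submitters' processing notes name cutadapt 1.18, HISAT2 2.1.0, Bowtie2 2.2.5 and SAMtools 1.9 without roles, and the builds mm10 and mm9. Coordinates here are those of the files, which match mm10.

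Counts were fitted in edgeR 4.0.16 (R 4.3.3): filterByExpr by group, TMM scaling, all 9 RNA-seq libraries in 1 fit and all 6 small RNA libraries in another, the quasi-likelihood test and Benjamini-Hochberg adjustment over all features. Calls are at an adjusted p under 0.05. CPM uses the scaled library size. DESeq2 1.42.0, other scaling, filters, strand settings, samples in the fit and each library left out were alternatives. RNA-seq replicate numbers follow accession order and were not treated as pairs. Tests ran first on simulated data.

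The precursors, marker and pathway lists were chosen with earlier results of these data known. Named precursors are the 10 called with the lowest adjusted p in each comparison and direction, the 10 highest per unshared kb in wild type, and the tested arms of divergent pairs and of 7 chosen loci. Named small RNA genes were chosen after their values were seen. Ddx39a of the pathway list had no match.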

Additional observations from a re-analysis of the deposited data

How the results depend on the processing

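Between homozygotes and heterozygotes, 0 precursors were called under every alternative run, and leaving out 1 library each moved the median log2 fold change between -0.11 and 0.05. Against wild type the calls depended on single libraries: leaving out 1 library each gave 5 to 17 calls in homozygotes and 6 to 26 in heterozygotes. Fitting only the groups compared gave 20 calls in homozygotes and 10 in heterozygotes, against 13 and 20 with all 9 libraries. Other scaling, filters, DESeq2, both strands summed, isoforms added up by locus and a length trend removed gave 11 to 16 and 16 to 23 calls. Of all features, the main fit called 20.8% and 23.9%, DESeq2 23% and 25.7%, and the fit with the length trend removed 20.1% and 20.7%. For most other fits the share of all features is not given here. Their counts show how calls depended on the fit, and not whether precursors differed from other features. None of the 30 calls of named precursors changed sign in any of the 540 alternative values computed, and 10 of the 30 calls passed the threshold in all 18 settings. The share of counts in precursors rose to 0.478, 0.622 and 0.582% (wild type, heterozygous, homozygous) when the 10 most abundant genes were left out of the total, and was 0.360% and 0.435% in wild type and homozygotes with both strands summed; the mutant means stayed above wild type.

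In small RNA, leaving out 1 library each gave 0 to 65 calls among precursor-strand genes, with 65 only without heterozygous 1. No filter on low counts gave 4 calls, and leaving out heterozygous 2 and 3, an alternative chosen after seeing the data, gave 2; the cause was not tested. With the replicate number as a block, 0 were called and 17 had an unadjusted p under 0.05. The labels give these numbers no meaning, so whether they pair the samples is not known. Deviations of same-numbered libraries from their group means correlated at -0.16, 0.00 and -0.09 over genes. With so few libraries per group these values cannot decide it. Depth limits the weakest values: 17 counted precursors were too low to test, and 351 with no unshared base cannot be measured in RNA-seq at any depth.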
